A study of Mus musculus with 8 samples.

Results

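Cells make cholesterol and fatty acids from the same precursor, cytosolic acetyl-CoA, and 31 genes of these pathways were followed after depletion of the cohesin subunit RAD21. They were taken by their symbols as a list of pathway genes: enzymes of the mevalonate pathway, enzymes that turn squalene into cholesterol, regulators and a transporter of sterols, enzymes that build fatty acids, and desaturases and an elongase. Each gene was represented by the brightest probe set that carries its symbol alone. This gave values for 30 of the 31 genes, among 18193 genes measured, 22 in the sterol branch and 8 in the fatty acid branch. Acat2 had no value under this rule.

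Expression was measured on 8 arrays, 4 of mouse embryonic stem cells (ESCs) of the line R1/E transfected with esiRNA against Rad21 and 4 of R1/E ESCs transfected with esiRNA against luciferase (Luc), a sequence with no target in mouse cells. R1/E is an established ESC line that the study grew without feeder cells in serum and LIF, and both groups received 800 ng esiRNA per well of 80000 cells. RNA was taken 48 h after transfection, and the labels number the biological replicates 1 to 4 in each group. An esiRNA is a mixture of many short interfering RNAs cut from one long double-stranded RNA. A knock-down leaves some of the target, and each array averages over cells with more and with less of it.

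Cholesterol synthesis starts with the condensation of acetyl-CoA units to HMG-CoA, passes through mevalonate and the isoprenoid farnesyl pyrophosphate to squalene, and closes the sterol rings in lanosterol, which is then trimmed to cholesterol in the endoplasmic reticulum. Most of its genes are switched on together by SREBP2, the product of Srebf2, and many fatty acid genes by SREBP1, the product of Srebf1. Both are membrane-bound precursors that SCAP carries from the endoplasmic reticulum to the Golgi, where proteases free the active part, and INSIG proteins hold SCAP back when sterols are plentiful. Removal of serum lipoproteins from the medium therefore raises these genes in cultured cells.

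Promoter sequences of RefSeq (mouse build GRCm38.p6) were at hand for 24 of the 31 genes. Stretches of 200 bases that end just before the annotated start are shown for Hmgcs1, the single gene of the set whose window held the classical sterol regulatory element, for Scap, Mvd and Elovl6, the genes that passed the test between the groups, and for Cyp51 and Insig1, whose calls depended on how the replicates were treated. They read 5′ to 3′ on the strand of the gene, and capitals mark every match, on either strand, to the sterol regulatory element TCACNCCAC, the CCAAT box CCAAT bound by NF-Y, the E-box CACGTG and the GC box GGGCGG. No matches overlapped in these stretches, and of several starts the most upstream was taken. The positions are chr13:119690151-119690350 (plus strand) for Hmgcs1, chr8:122443423-122443622 (minus strand) for Mvd, chr5:4104698-4104897 (minus strand) for Cyp51, chr5:28071212-28071411 (plus strand) for Insig1, chr9:110333088-110333287 (plus strand) for Scap and chr3:129532186-129532385 (plus strand) for Elovl6.
Hmgcs1: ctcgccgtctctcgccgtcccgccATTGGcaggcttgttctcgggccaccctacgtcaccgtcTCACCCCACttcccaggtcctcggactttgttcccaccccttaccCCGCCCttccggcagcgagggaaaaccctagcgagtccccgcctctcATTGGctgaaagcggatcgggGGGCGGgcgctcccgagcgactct
Mvd: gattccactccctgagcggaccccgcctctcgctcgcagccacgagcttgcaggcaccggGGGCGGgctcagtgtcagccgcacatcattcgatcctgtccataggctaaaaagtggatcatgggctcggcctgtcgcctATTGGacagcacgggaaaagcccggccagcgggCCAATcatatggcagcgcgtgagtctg
Cyp51: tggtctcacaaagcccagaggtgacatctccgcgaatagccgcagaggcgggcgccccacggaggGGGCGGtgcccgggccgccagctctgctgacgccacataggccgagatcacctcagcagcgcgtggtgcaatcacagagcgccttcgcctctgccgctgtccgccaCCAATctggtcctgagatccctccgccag
Insig1: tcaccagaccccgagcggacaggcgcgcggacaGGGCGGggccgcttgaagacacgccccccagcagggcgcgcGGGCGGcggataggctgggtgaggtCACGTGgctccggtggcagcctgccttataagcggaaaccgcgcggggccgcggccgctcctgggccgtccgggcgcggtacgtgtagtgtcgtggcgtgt
Scap: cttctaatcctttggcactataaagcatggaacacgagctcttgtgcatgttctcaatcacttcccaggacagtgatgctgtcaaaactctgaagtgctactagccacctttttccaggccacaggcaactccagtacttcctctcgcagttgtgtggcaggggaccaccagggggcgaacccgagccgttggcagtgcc
Elovl6: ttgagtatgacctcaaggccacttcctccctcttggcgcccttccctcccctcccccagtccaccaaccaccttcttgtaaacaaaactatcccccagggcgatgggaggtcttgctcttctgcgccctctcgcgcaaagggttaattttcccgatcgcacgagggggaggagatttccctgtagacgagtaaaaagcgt

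Over whole windows, from 250 bases before to 50 bases after a start, the CCAAT box was found in 19 of the 24 genes and in 41.1% of all 27025 genes with a window. The GC box was found in 20 of 24 and in 38.2% of all genes, and the E-box in 5 of 24 and in 8.09%. The sterol regulatory element in the spelling above was found in 1 of 24, Hmgcs1, and in 1.44% of all genes. In the stretch shown, its first base lies 137 bases before the start of Hmgcs1, with CCAAT boxes on the opposite strand on both sides. Mvd and Cyp51 each hold a CCAAT box close to the start, 27 and 29 bases before it. The only Elovl6 window holds none of these motifs. The Scap stretch shown holds none either, but the windows of Scap hold E-box and GC box matches after that start, some of them ahead of a further annotated start. A match is only a run of letters, and its absence says nothing about binding.

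The arrays matched their labels. Rad21 itself, at its brightest probe set, had 13.67 ± 0.19 on the Luc arrays and 12.08 ± 0.43 on the Rad21 arrays (log2, mean ± SD, n = 4), so 33.4% of the control signal remained (limma adjusted p = 0.00222). The change there was -1.80 (log2) in replicates 1 and 2 and -1.36 in replicates 3 and 4. At dimmer Rad21 probe sets 50.6% and 16.6% of the signal remained (limma adjusted p = 0.0114 and 1.64e-04). All 8 ESC markers examined were bright in both groups, with a mean of 13.60 to 13.69 on the Luc arrays and 12.97 to 13.05 on the Rad21 arrays, and 6 of the 8 fell. At the same limma threshold, an adjusted p under 0.05, 10.1% of all 18193 genes rose and 12.6% fell. Among the 10299 genes with a mean of at least 4, 1719 rose and 2261 fell. Markers of extraembryonic endoderm averaged 3.04 to 3.08 on the Luc arrays and 3.43 to 3.70 on the Rad21 arrays. Of these 12 markers 3 rose (Amn, Dab2 and Apob), and 9, Gata4, Gata6 and Sox17 among them, had both group means under 4, where GCRMA values form a low plateau. Cubn, also of these 9, reached 4.48 and 4.04 on Rad21 arrays 3 and 4. In replicates 3 and 4 alone Cubn (1.86) and Sox7 (0.43) were called up (limma adjusted p = 0.0236 and 0.0313). Fibroblast markers averaged 3.19 to 3.32 and 3.25 to 3.39, with 7 of 9 under 4 in both groups. Among them Thy1 was called, a fall from 4.53 to 3.96 (limma adjusted p = 0.0248). Col3a1 went the other way, by 0.80, and was not called (limma adjusted p = 0.189). In replicates 1 and 2 alone Col3a1 was called up (1.35, limma adjusted p = 0.0127). For adipocyte and hepatocyte markers the averages were 3.61 to 3.71 and 3.39 to 3.52, with 5 of 7 under 4, Alb and Fabp4 among them. Adipoq of this list was called, a fall from 4.34 to 3.15 (limma adjusted p = 0.00275). The part of the ESC and endoderm shifts in the values below was not tested, and in bulk RNA fewer expressing cells and less RNA per cell cannot be told apart.

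Replicates 1 and 2 stood apart from replicates 3 and 4 in both groups on the second principal component of all probe sets, which held 11.6% of the variance, against 66.2% for the first, which separated the groups. The labels name no batch. The split was read from these same data, so changes within each pair of replicates and a fit with the split as a block are given beside the pooled values. P-values from that fit depend on a split chosen after seeing the arrays.

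**Figure D1:**
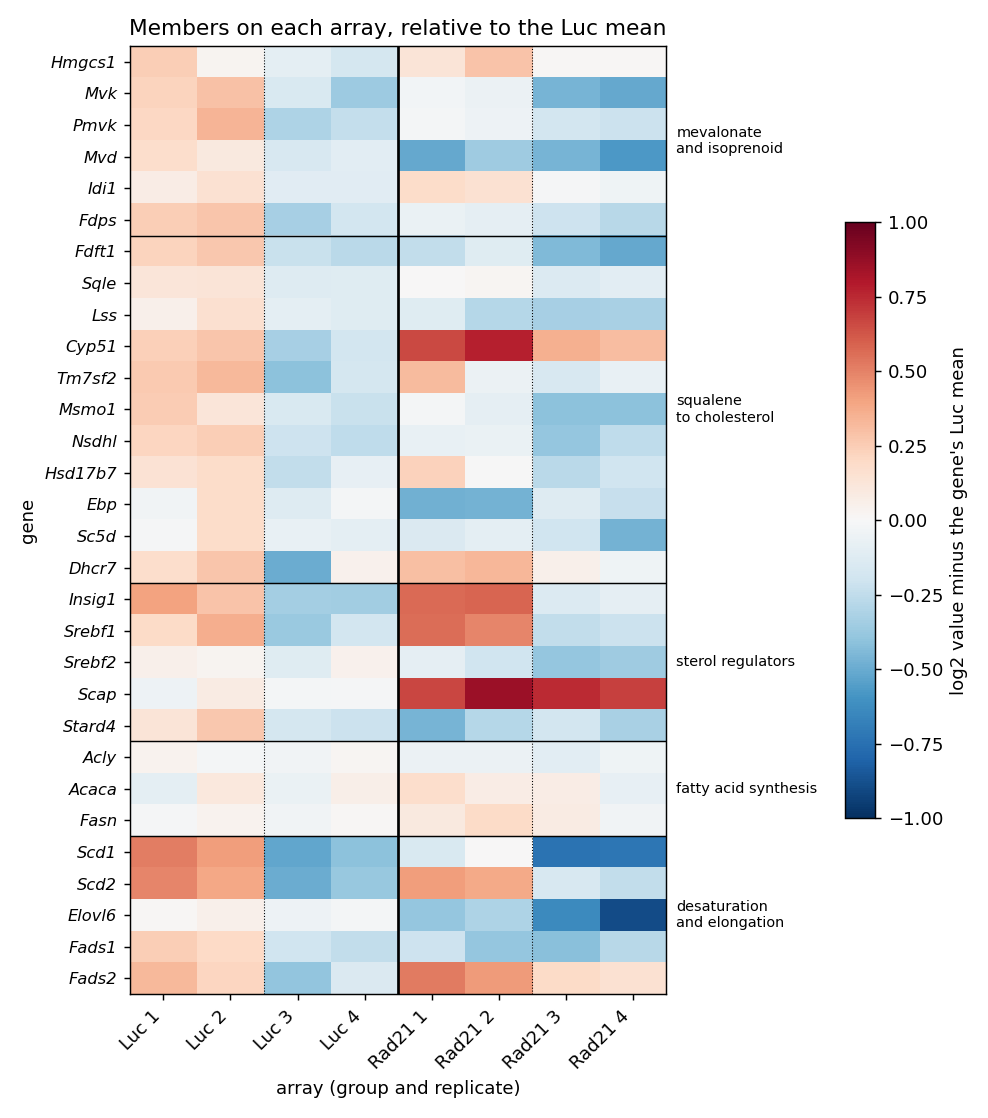
Log2 value of each of the 30 genes (rows) on each of the 8 arrays (columns) minus the mean of the 4 Luc arrays for that gene, with red above and blue below it; solid lines part the groups and gene lists and dotted lines part replicates 1 and 2 from 3 and 4. Scap is red on all 4 Rad21 arrays, Mvd and Elovl6 are blue on all 4, and in 21 of the 30 rows replicates 1 and 2 lie above replicates 3 and 4 in both groups.

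Few of these genes passed the test after knock-down of Rad21. At an adjusted p under 0.05 (limma, Benjamini-Hochberg over 45037 probe sets), 1 of the 30 genes rose, Scap, and 2 fell, Mvd and Elovl6, whereas 10.1% of all 18193 genes rose and 12.6% fell. Of the 10299 genes with a mean of at least 4, 1719 rose and 2261 fell. The other 27 of the 30 genes did not pass, 11 with a positive and 16 with a negative change. The median log2 change was -0.09 over the 30 genes, -0.14 in the sterol branch and -0.0038 in the fatty acid branch, against 0.0033 over all genes and -0.03 over the 10299 genes with a mean of at least 4, a level that all 30 reached. These medians moved with single arrays, in the sterol branch from -0.24 without Luc replicate 3 to -0.04 without Luc replicate 2 (-0.03 with array weights), and in the fatty acid branch from -0.07 without Luc replicate 3 to 0.02 without Rad21 replicate 4. The 4 Rad21 arrays did not overlap the 4 Luc arrays for 7 of the 30 genes, Scap and Cyp51 above and Mvd, Ebp, Sc5d, Acly and Elovl6 below, while 45.7% of the 10299 genes did not overlap in either direction. The gap was narrow for Ebp, Sc5d and Acly. Their highest Rad21 arrays were at 10.892, 8.101 and 13.675, and their lowest Luc arrays at 10.896, 8.104 and 13.685. With the split of the replicates as a block, 4 of the 30 genes rose and 9 fell, against 12.2% and 14.9% of all genes. Of the 10299 genes with a mean of at least 4, 2082 rose and 2668 fell in that fit. In the set, rises were called for Scap, Cyp51, Insig1 and Fads2, and falls for Mvd, Mvk, Fdft1, Lss, Msmo1, Nsdhl, Srebf2, Scd1 and Elovl6. In replicates 1 and 2 alone 2 of the 30 rose and 10 fell (9.03% and 10.8% of all genes), and in replicates 3 and 4 alone 3 rose and 4 fell (7.67% of all genes in each direction). Of the 10299 genes with a mean of at least 4, 1519 rose and 1935 fell in replicates 1 and 2 alone. For replicates 3 and 4 alone these counts were 1300 and 1354. Scap, Mvd and Elovl6 were called in the pooled fit and in both pairs. The change differed between the pairs for 0 of the 30 genes at an adjusted p under 0.05 (limma interaction), beside 167 of the 10299 genes with a mean of at least 4. With so few genes called, 0 of 30 does not set these genes apart. At an unadjusted p under 0.05 were 11 of the 30 and 2501 of the 10299. The lowest adjusted p of the 30 was 0.114, for Pmvk.

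**Figure D2:**
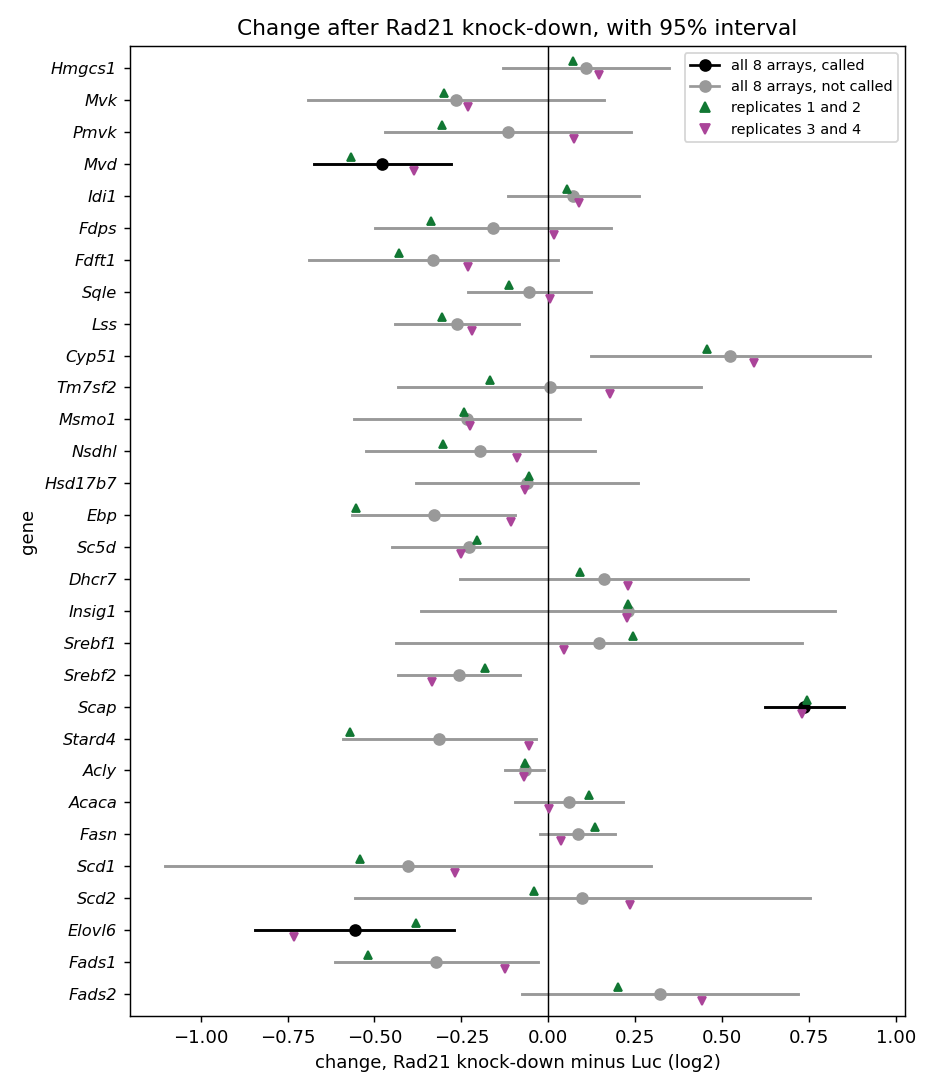
Change of each gene after Rad21 knock-down (log2, Rad21 minus Luc) with its 95% interval from 4 against 4 arrays, black where called at an adjusted p under 0.05 and grey where not; upward triangles are the change in replicates 1 and 2 and downward triangles that in replicates 3 and 4. Scap lies at 0.74 with both triangles beside it, and Mvd (-0.48) and Elovl6 (-0.56) are the called falls.

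In the mevalonate pathway Mvd fell and the other 5 measured genes did not pass the test. Mvd encodes mevalonate diphosphate decarboxylase, which makes isopentenyl pyrophosphate, the building block of all isoprenoids. It measured 8.67, 8.59, 8.33 and 8.39 on Luc arrays 1 to 4 and 7.98, 8.14, 8.03 and 7.92 on Rad21 arrays 1 to 4 (log2). Every Rad21 array lay below every Luc array. The change was -0.48 ± 0.08 (log2, SE), so 71.8% of the Luc signal remained (adjusted p = 0.0082), with -0.57 in replicates 1 and 2 against -0.39 in replicates 3 and 4. A further Mvd probe set changed by -0.61 ± 0.15 (adjusted p = 0.0293).

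Hmgcs1, whose product condenses acetyl-CoA units to HMG-CoA at the head of the pathway, measured 13.53, 13.31, 13.19 and 13.11 on the Luc arrays and 13.42, 13.57, 13.30 and 13.30 on the Rad21 arrays. The groups overlapped, and the change of 0.11 had a 95% interval from -0.13 to 0.35 (adjusted p = 0.683). Its 5 probe sets had changes from -0.10 to 0.32, none called. Mevalonate kinase, encoded by Mvk, had a change of -0.27 ± 0.18 (adjusted p = 0.514), and with the split as a block it fell (SE 0.05, adjusted p = 0.0108). At a dimmer Mvk probe set the change was -0.03 (adjusted p = 0.962 with the block). Pmvk, the next kinase of the pathway, had -0.12 (95% interval -0.47 to 0.24), with -0.31 in replicates 1 and 2 against 0.07 in replicates 3 and 4. Idi1, which interconverts the isoprenoid building blocks, and Fdps, which joins them to farnesyl pyrophosphate, had 0.07 and -0.16 with adjusted p of 0.753 and 0.665. A second bright Idi1 probe set had 0.35 ± 0.11 with no overlap of the groups (adjusted p = 0.0775), and the mean of both Idi1 probe sets was called a rise (0.21, adjusted p = 0.0282). Fdps was called down in replicates 1 and 2 alone (-0.34, adjusted p = 0.0169) and had 0.02 in replicates 3 and 4.

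Of the 11 genes from squalene to cholesterol, 0 were called in the pooled limma fit, where 4 (Lss, Cyp51, Ebp and Sc5d) had an unadjusted p under 0.05, as did 6187 of all 18193 genes. All 11 had a mean of at least 4, and of the 10299 genes at that level 5777 had an unadjusted p under 0.05 in that fit. The plain analysis of variance called 0 of the 11, and with the split as a block limma called 1 rise and 4 falls. In that block fit 2082 of the 10299 genes rose and 2668 fell. Cyp51 encodes the lanosterol demethylase, the enzyme that azole drugs inhibit in fungi. It measured 9.45, 9.49, 8.88 and 9.02 on the Luc arrays and 9.87, 9.98, 9.56 and 9.52 on the Rad21 arrays. The lowest Rad21 array lay just above the highest Luc array. In each group replicates 1 and 2 were the higher ones. The change was 0.52 ± 0.17 (adjusted p = 0.095), 0.46 in replicates 1 and 2 against 0.59 in replicates 3 and 4, and with the block its SE was 0.05 and it rose (adjusted p = 6.15e-04). Another probe set of similar level for Cyp51 had 0.37 ± 0.22 (adjusted p = 0.41, and 0.0131 with the block).

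The entry into this segment is squalene synthase, encoded by Fdft1, which measured 12.38, 12.43, 11.94 and 11.89 on the Luc arrays and 11.91, 12.04, 11.72 and 11.65 on the Rad21 arrays. Within each pair of replicates both Rad21 arrays lay below both Luc arrays, but the groups as a whole overlapped, and the change of -0.33 ± 0.15 (adjusted p = 0.254) was called with the block (adjusted p = 0.00614) and in replicates 1 and 2 alone (adjusted p = 0.0221) but not in the pooled fit. Squalene epoxidase, encoded by Sqle and rate-limiting in the later part of the pathway, measured 10.71, 10.72, 10.46 and 10.47 against 10.59, 10.61, 10.45 and 10.48. Here the groups overlapped widely, with a change of -0.05 (95% interval -0.23 to 0.12). Lss, the enzyme that folds squalene epoxide into lanosterol, had -0.26 ± 0.08 (adjusted p = 0.0612, 0.0085 with the block and 0.0383 without Rad21 replicate 1). A dimmer Lss probe set had a change of the opposite sign, 0.48 ± 0.30 (adjusted p = 0.452), which the block called a rise (adjusted p = 0.00371), so the direction of Lss depends on the probe set.

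Ebp, the sterol isomerase that binds emopamil, measured 10.99, 11.20, 10.90 and 11.002 on the Luc arrays and 10.54, 10.55, 10.89 and 10.79 on the Rad21 arrays. All Rad21 arrays were the lower ones, those of replicates 1 and 2 by the most, while Rad21 replicate 3 lay just below the lowest Luc array. Its change of -0.33 ± 0.10 (adjusted p = 0.0739, and 0.0367 without Rad21 replicate 3) was -0.55 in replicates 1 and 2 against -0.11 in replicates 3 and 4. Msmo1 and Nsdhl, which take part in removing methyl groups from lanosterol derivatives, had -0.23 ± 0.14 and -0.20 ± 0.14 (adjusted p = 0.421 and 0.537) and were called down with the block (adjusted p = 0.00527 and 0.0496). Sc5d, a sterol desaturase, had -0.23 ± 0.09 (adjusted p = 0.195). The reductase gene Tm7sf2 had 0.0047, Hsd17b7, a keto reductase of the pathway, -0.06, and Dhcr7, the reductase of the last step, 0.16, with adjusted p from 0.745 to 0.996.

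Among the regulators Scap rose, with the lowest adjusted p of the 30 genes. It measured 8.995, 9.14, 9.03 and 9.04 on the Luc arrays and 9.72, 9.90, 9.79 and 9.74 on the Rad21 arrays. All Rad21 arrays were above all Luc arrays by more than the spread within either group. The change was 0.74 ± 0.05 (log2, SE), a 1.67-fold rise (adjusted p = 1.06e-04), with 0.74 in replicates 1 and 2 against 0.73 in replicates 3 and 4. The other Scap probe set lay at a mean of 1.73, on the low plateau, and had a change of 0.01.

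The SREBP genes themselves did not pass the pooled test. Srebf2 measured 8.87, 8.84, 8.69 and 8.86 on the Luc arrays and 8.73, 8.62, 8.42 and 8.46 on the Rad21 arrays. Only Rad21 replicate 1 reached into the range of the Luc arrays. Its change of -0.26 ± 0.08 had an adjusted p of 0.0632, of 0.016 with the block and of 0.0230 without Rad21 replicate 1, while a dimmer Srebf2 probe set had 0.02. Srebf1 had a change of 0.15 with a wide 95% interval from -0.44 to 0.73, and its arrays ran from 8.53 to 9.27 in the Luc group and from 8.65 to 9.46 in the Rad21 group.

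Insig1, an SREBP target that retains SCAP in the endoplasmic reticulum, measured 11.13, 11.02, 10.39 and 10.38 on the Luc arrays and 11.30, 11.31, 10.59 and 10.64 on the Rad21 arrays. Values fell into a high and a low pair in both groups. Between the groups the change was 0.23 ± 0.25 in the pooled fit (adjusted p = 0.75) and 0.23 ± 0.03 with the block (adjusted p = 0.0021), the same size in both pairs. Stard4, a carrier of cholesterol between membranes, had -0.31 ± 0.12 (adjusted p = 0.15), with -0.57 in replicates 1 and 2 against -0.05 in replicates 3 and 4, and its other 2 probe sets had 0.14 and -0.03.

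**Figure D3:**
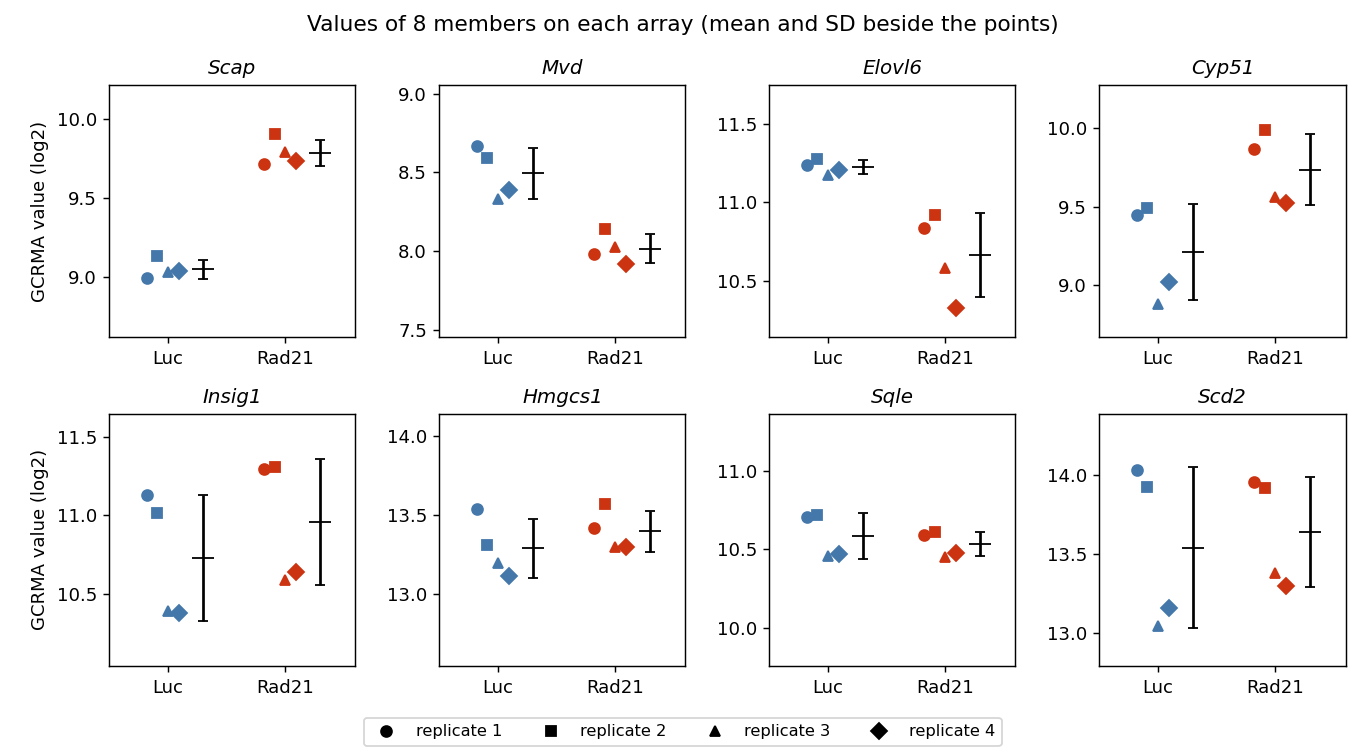
GCRMA values (log2) of 8 genes on each array, one panel per gene with axes of equal span, Luc in blue and Rad21 in red, symbols for replicates 1 to 4 and the mean with SD (n = 4) beside the points. The Rad21 arrays lie clear of the Luc arrays for Scap (above), Mvd and Elovl6 (below), while Insig1, Hmgcs1, Sqle and Scd2 differ mainly between replicates 1 and 2 and replicates 3 and 4.

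The 3 enzymes that build palmitate did not pass the test at their brightest probe sets. Fasn, the fatty acid synthase, measured 10.90, 10.94, 10.87 and 10.92 on the Luc arrays and 11.01, 11.10, 10.99 and 10.88 on the Rad21 arrays. Of the Rad21 arrays 3 lay above the Luc range and replicate 4 within it, and the change of 0.08 had a 95% interval from -0.02 to 0.19 (adjusted p = 0.358). Acaca, acetyl-CoA carboxylase, had 0.06 (95% interval -0.09 to 0.22). Acly, which makes cytosolic acetyl-CoA from citrate and so feeds both branches, had -0.07 ± 0.02 at its brightest probe set, of the _x_at kind, at a mean of 13.69 (adjusted p = 0.121). Of its 6 probe sets 2 dimmer ones were called down, by -0.16 ± 0.04 (mean 13.05, adjusted p = 0.0188) and by -0.44 ± 0.07 (mean 9.45, adjusted p = 0.00384), so the call for Acly depends on the probe set. The remaining 3 had means under 4.

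Elovl6, the elongase that takes palmitate to stearate, was the fatty acid gene that fell. It measured 11.24, 11.28, 11.18 and 11.20 on the Luc arrays and 10.84, 10.92, 10.59 and 10.33 on the Rad21 arrays. The Luc arrays lay close together and all Rad21 arrays below them, replicates 3 and 4 lowest. The change was -0.56 ± 0.12, which left 68.0% of the Luc signal (adjusted p = 0.0206), and it was -0.38 and -0.73 in the 2 pairs. A dimmer probe set gave -0.55 ± 0.09 (adjusted p = 0.00523). In the plain analysis of variance named in the study's methods the adjusted p of Elovl6 was 0.0533, and without Luc replicate 1, 2 or 4 or Rad21 replicate 3 it was 0.0575, 0.0592, 0.0527 and 0.0537.

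The stearoyl-CoA desaturases, which make oleate, had the largest SDs of the 30 genes among the Luc arrays, 0.54 for Scd1 and 0.51 for Scd2. Scd1 measured 10.43, 10.33, 9.40 and 9.50 on the Luc arrays and 9.76, 9.92, 9.18 and 9.19 on the Rad21 arrays. Within each pair both Rad21 arrays lay below both Luc arrays, but replicates 1 and 2 of the knock-down were above replicates 3 and 4 of the control. The change of -0.40 ± 0.30 (adjusted p = 0.555) was a fall with the block (SE 0.07, adjusted p = 0.00816). A dimmer Scd1 probe set did not show it, with -0.03 over all arrays (adjusted p = 0.974 with the block), -0.52 in replicates 1 and 2 and 0.46 in replicates 3 and 4. Scd2 measured 14.03, 13.93, 13.04 and 13.16 against 13.96, 13.92, 13.38 and 13.29. Its groups overlapped fully, with a change of 0.10 and a 95% interval from -0.56 to 0.75. The direction of Scd2 depends on the probe set, since a dimmer one had -0.33 ± 0.39 and was called down with the block (adjusted p = 0.0357). The polyunsaturated fatty acid desaturases Fads1 and Fads2 had -0.32 ± 0.12 (adjusted p = 0.16) and 0.32 ± 0.17 (adjusted p = 0.337). Fads1 was called down in replicates 1 and 2 alone (-0.52, adjusted p = 0.0212), with -0.12 in replicates 3 and 4. Fads2 was called a rise with the block (adjusted p = 0.0282), though a dimmer Fads2 probe set had -0.23.

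Most of these genes differed between the pairs of replicates in the same direction. In 21 of the 30 genes both arrays of replicates 1 and 2 were above both arrays of replicates 3 and 4 in the Luc group and again in the Rad21 group, and in 0 they were below in both. Of the 10299 genes with a mean of at least 4, 14.3% were above in this way and 9.79% below. The split was seen in 17 of 22 sterol genes, among them 5 of 6 mevalonate genes, 10 of 11 genes from squalene to cholesterol and 2 of 5 regulators. In the fatty acid branch it was seen in 4 of the 5 desaturase and elongase genes and in 0 of the 3 synthesis genes. The mean difference between the pairs had a median of 0.29 over the 30 genes (log2, 1.22-fold), and was 0.79 for Scd1, 0.74 for Scd2, 0.69 for Insig1 and 0.66 for Srebf1. It was 0.04 for Scap and 0.02 for Acly. In the Luc means replicates 1 and 2 were the higher pair for 30 of 30 genes, and in the Rad21 means for 28 of 30, Ebp and Stard4 being the exceptions. Since the pairs were found in these arrays and the labels do not name them, no test was made of this difference.

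The same split is seen in the summary of each branch by array. Relative to each gene's Luc mean, the median sterol gene lay at 0.18, 0.22, -0.17 and -0.18 on Luc arrays 1 to 4 and at -0.02, -0.06, -0.19 and -0.22 on Rad21 arrays 1 to 4 (log2). The knock-down arrays of replicates 1 and 2 were thus below their controls, and those of replicates 3 and 4 near theirs. The median fatty acid gene lay at 0.14, 0.15, -0.14 and -0.08 and at 0.02, 0.04, -0.14 and -0.16. The SD among the 4 Luc arrays had a median of 0.23 over the 30 genes, against 0.11 over the genes with a mean of at least 4, and among the Rad21 arrays 0.16 against 0.10.

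**Figure D4:**
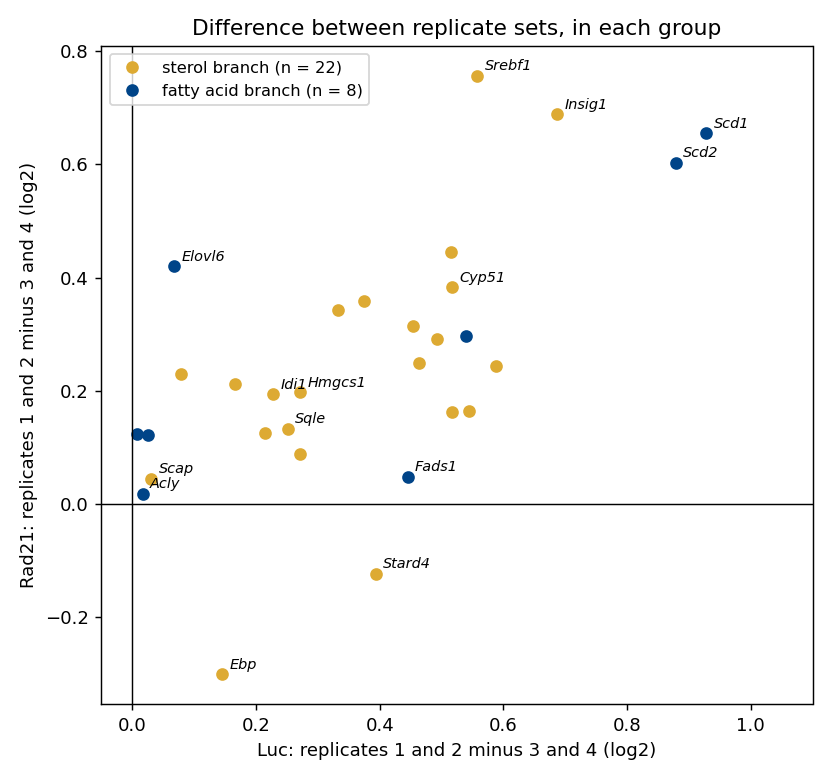
Mean of replicates 1 and 2 minus mean of replicates 3 and 4 (log2) in the Luc group (horizontal axis) and in the Rad21 group (vertical axis), one point per gene, sterol genes in yellow and fatty acid genes in blue. All 30 points lie to the right of 0 and 28 also lie above 0, with Ebp and Stard4 below.

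Neighbouring pathways were read from lists of pathway genes on the same scale, to be set against the 10.1% of all genes that rose and the 12.6% that fell. Of the 10299 genes with a mean of at least 4, 1719 rose and 2261 fell. Among 13 genes that process SREBPs or degrade sterol-regulated proteins, 2 rose and 1 fell. Mbtps2, the protease that makes the last cut of SREBPs in the Golgi, rose from 10.81 ± 0.11 to 11.32 ± 0.04 (log2, mean ± SD, n = 4, change 0.51 ± 0.05, adjusted p = 8.63e-04). Ubxn8, an endoplasmic reticulum protein of the degradation machinery, rose by 0.35 ± 0.05 (adjusted p = 0.00435), and Erlin1 fell by 0.15 on the log2 scale (adjusted p = 0.0206). Without Luc replicate 2 or 4 or Rad21 replicate 1 the adjusted p of Erlin1 was 0.0547, 0.0610 and 0.0575. Of 11 other sterol and isoprenoid enzymes 1 rose, Lbr, the lamin B receptor that is also a sterol reductase (change 0.44 ± 0.08, adjusted p = 0.00962).

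Of 10 genes of liver X receptors and sterol efflux 2 fell and the other 8 did not pass. Only 6 of the 10 had a mean of at least 4, and the rest lay on the low plateau. Abca1, the pump that loads cholesterol onto apolipoproteins, fell from 9.28 ± 0.20 to 7.61 ± 0.09, a change of -1.67 ± 0.10 (adjusted p = 7.10e-05) that left 31.5% of the Luc signal. Of the 3 Abca1 probe sets 1 was called, and averaged over all 3 the change of Abca1 was -0.60 (adjusted p = 4.14e-04). Rxrb, a partner of liver X receptors, fell by 0.22 (adjusted p = 0.0371). Of 15 genes of uptake, transport and esterification, 14 of them with a mean of at least 4, 3 fell and the other 12 did not pass. Among these 12, Lipa, the lysosomal lipase, was called up in replicates 3 and 4 alone (1.04, adjusted p = 0.0298) and Gramd1c in replicates 1 and 2 alone (1.07, adjusted p = 0.0403), and the Rad21 arrays lay above the Luc arrays without overlap for Gramd1c and Npc1. They were named after their values were seen. Gramd1a, a carrier of sterol at membrane contacts, had -0.69 ± 0.03 (adjusted p = 2.17e-05) and Osbpl2, an oxysterol-binding protein, -0.48 ± 0.08 (adjusted p = 0.00616). Vldlr, a lipoprotein receptor, had -0.98 ± 0.23 (adjusted p = 0.0251), and -0.43 (adjusted p = 0.162) at its brightest probe set once those named _x_at or _s_at, which can match several transcripts, were left out. Of the 6 Vldlr probe sets 1 was called, and in replicates 3 and 4 alone its change was -0.56 (adjusted p = 0.222). The call of Vldlr held in 3 of the 8 fits that left out 1 array (adjusted p up to 0.0700, without Luc replicate 2), and that of Rxrb in 3 of 8 (up to 0.101, without Rad21 replicate 2).

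Fatty acid genes outside the set were called in both directions. Of 31 other genes of fatty acid and glycerolipid synthesis 8 rose and 7 fell, beside 10.1% and 12.6% of all genes. A mean of at least 4 was reached by 29 of the 31, and of the 10299 genes at that level 1719 rose and 2261 fell. The elongase gene Elovl4 went from 6.25 ± 0.22 to 7.37 ± 0.14 (change 1.12 ± 0.12, adjusted p = 8.24e-04), the desaturase gene Scd3 had 1.02 ± 0.27 (adjusted p = 0.0442) and the acyl-CoA synthetase gene Acsl5 0.83 ± 0.12 (adjusted p = 0.00289). Among the falls were the elongase gene Elovl7 (-0.73 ± 0.17, adjusted p = 0.0266) and the mitochondrial fatty acid synthesis genes Mcat (-0.65 ± 0.15, adjusted p = 0.0252) and Cbr4 (-0.65 ± 0.07, adjusted p = 7.97e-04). For Scd3 1 of 2 probe sets was called, and for Elovl7 2 of 6, with the brightest of the _x_at kind. Leaving out single arrays, the call of Scd3 held in 2 of 8 fits (adjusted p up to 0.109, without Luc replicate 3), that of Elovl7 in 2 of 8 (up to 0.0768) and that of Mcat in 3 of 8 (up to 0.0688), the last pair without Luc replicate 1. Of 19 genes of fatty acid oxidation 3 rose, Cpt1c (0.67), Acadvl (0.45) and Acadl (0.30), and 4 fell, with Acaa2 (-0.78), Acadm (-0.53) and Slc25a20 (-0.52) in front. The call of Acadvl held in 1 of the 8 fits without 1 array (adjusted p up to 0.101, without Luc replicate 1) and that of Acadl in 5 (up to 0.0666, without Rad21 replicate 2). Replicates 1 and 2 were above replicates 3 and 4 in both groups for 7 of these 19 genes, and for 2 or 3 genes in each of the other related lists, while 5 of the 11 other sterol and isoprenoid enzymes were below in both groups.

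**Figure D5:**
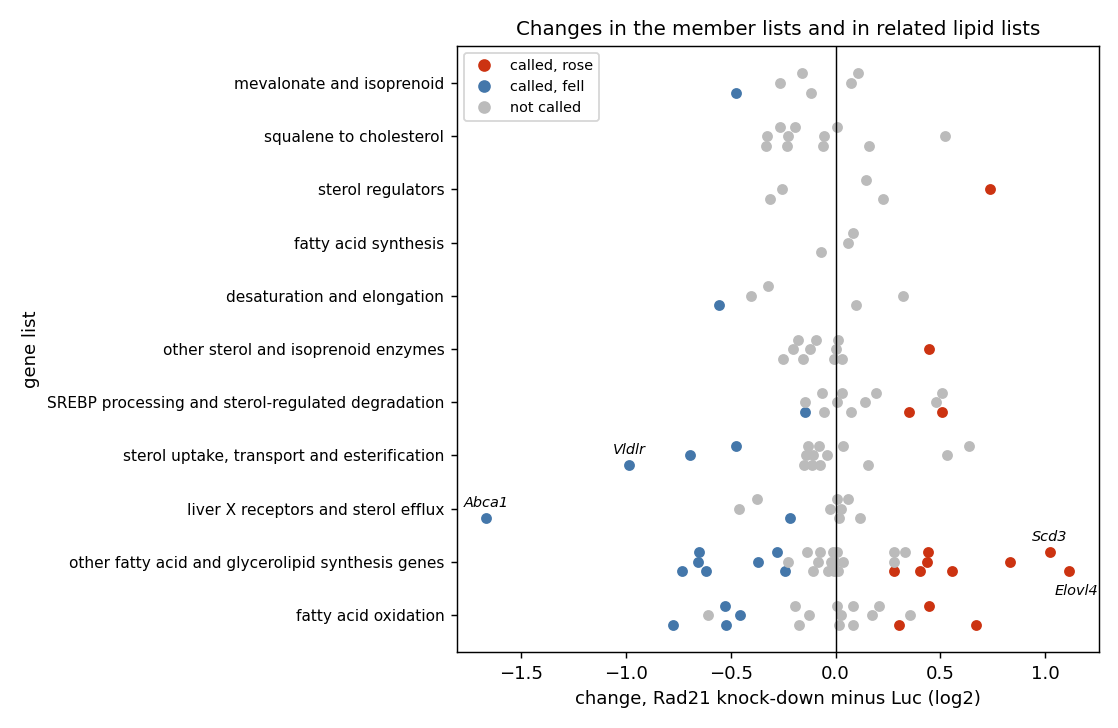
Change after Rad21 knock-down (log2, Rad21 minus Luc) of every measured gene in the 5 lists of the set and in 6 related lists, one point per gene, red where called up, blue where called down and grey where not called; vertical offsets only part the points. Changes of called genes in the set stay between -0.56 and 0.74. Among the called genes further out are Abca1 (-1.67), Elovl4 (1.12), Scd3 (1.02) and Vldlr (-0.98).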

How the data were processed

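Total RNA (250 ng per the labels, 250 ug in the study's methods) was labelled with biotin and hybridised to Affymetrix whole-genome mouse arrays. The deposited log2 values were made by the authors with GCRMA in Partek 6.4. GCRMA gives all arrays a common distribution, so a shift of the whole transcriptome would not be seen, and it compresses dim probe sets. Scanner files were not used here.

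Of 45101 probe sets 64 controls were left out. Symbols came from the platform annotation. 34945 probe sets had 1 symbol and 932 had several, and a gene took its brightest single-symbol probe set over the 8 arrays. The groups were compared by limma 3.58.1 (lmFit and eBayes, R 4.3.3), two-sided, on 45037 probe sets, with Benjamini-Hochberg adjustment and calls at an adjusted p under 0.05. A change is Rad21 minus Luc. The p-values measure the spread between arrays labelled biological replicates. The script was tested on simulated data. Plots were drawn with matplotlib 3.10.9.

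The genes of the set and all lists were chosen with earlier results of these data known. All genes of the set were named, every Rad21 probe set was examined, and in each related list up to 3 called genes in each direction were named by size of change. Alternatives were the plain analysis of variance, limma with a robust variance trend, array weights, blocks for the replicate number or for the replicate split, each side of the split alone, a filter at a mean of 4, centring on bright probe sets or quantile normalization, averaging over all probe sets of each gene, dropping probe sets of the _x_at and _s_at kinds, and dropping each array in turn.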

Additional observations from a re-analysis of the deposited data

Results flagged for a closer look

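Srebf2 had 1 Luc array apart from the rest of its group, replicate 3 at 8.69 (log2) against 8.84 to 8.87 on the other Luc arrays, a gap of 0.841 of the whole range. Gramd1a had 1 Rad21 array apart, replicate 4 at 7.52 against 7.61 to 7.62, a gap of 0.95 of the range. These were 2 of 102 pairs of gene and group examined, and chance alone gives about 5% of such groups. Lbr was the single gene of the 51 named whose change differed between the pairs of replicates, 0.27 in replicates 1 and 2 and 0.62 in replicates 3 and 4 (limma interaction, adjusted p = 0.0482). Among the related genes not named, 1 of the 13 that process SREBPs or degrade sterol-regulated proteins also passed that test. Of all 18193 genes, 187 passed that test at an adjusted p under 0.05.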

How the results depend on the processing

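Scap and Mvd kept their direction and their call under all 20 alternatives, with changes from 0.38 to 0.77 for Scap and from -0.61 to -0.39 for Mvd, and Elovl6 kept its call under 15, with changes from -0.73 to -0.36. The count of genes of the set that rose, 1 in the reported fit, was 2 with array weights, with the mean of all probe sets, with a minimum mean of 4 and in replicates 1 and 2 alone, 3 in replicates 3 and 4 alone and 4 with the replicate split as a block, and it stayed at 1 when any single array was left out. The count that fell, 2 in the reported fit, was 1 in the plain analysis of variance, 4 with the mean of all probe sets, 5 with a minimum mean of 4, 4 in replicates 3 and 4 alone, 9 with the split as a block, 10 in replicates 1 and 2 alone, and from 1 to 4 when single arrays were left out, with 1 without Luc replicate 1, 2 or 4 and 4 without Rad21 replicate 1. With the replicate number as a block 3 rose and 8 fell. Deviations of arrays with the same number correlated at 0.02, 0.13, 0.07 and 0.13, and 1 of the 4 knock-down arrays correlated best with its own number. So few arrays cannot show whether samples with the same number were prepared together, and the labels do not say. Called probe sets numbered 6697 of 45037 in the reported fit and 4592 to 8177 under the alternatives. They were 7462 with array weights, 6224 with the replicate number as a block and 5049 in the plain analysis of variance. With a minimum mean of 4 they were 7645, among fewer tested probe sets. Shares of all genes were not counted in these 4 fits or with the mean of all probe sets. The counts of the set there do not set these genes apart. The count of genes higher in replicates 1 and 2 stayed between 20 and 21 of 30 under quantile normalization, centring, the mean of all probe sets and without _x_at and _s_at probe sets, alternatives that were chosen after seeing the data, as was the refit of genes outside the set. The cause of these differences was not tested. With 4 arrays a group, the 95% intervals of single genes had widths from 0.11 (Acly) to 1.40 (Scd1) on the log2 scale.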
